A study of Homo sapiens with 6 samples.

Results

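The enzymes that write, maintain and erase DNA methylation, together with 3 core genes of the Polycomb complex PRC2, were followed in MDA-MB-231 cells in which the chromatin protein HMGA2 had been knocked down. The 10 genes were taken by gene symbol from a table of 61806 genes. They were DNMT1, UHRF1, DNMT3A and DNMT3B for DNA methylation, TET1, TET2 and TET3 for its removal, and EZH2, EZH1 and SUZ12 for PRC2. MDA-MB-231 is a human triple-negative breast cancer line of mesenchymal character, and HMGA2 is an architectural protein that binds AT-rich DNA. Total RNA was sequenced from the shNC line, the control, and from the shHMGA2-1 and shHMGA2-2 lines, in 2 libraries each and 6 in all. The shHMGA2 lines carry different short hairpins against HMGA2. The control is titled shNC, but its library names read WT, and whether it carries a control hairpin is not described. By the study's methods, stable knockdown lines were each grown from 1 clone after limiting dilution. Whether this holds for shNC, and whether the libraries of a line came from separate cultures, is not given in the sources used here. P-values therefore measure the spread between these libraries, which may be technical, and the effect of a hairpin and the difference between clones cannot be told apart.

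DNA methylation at CpG sites is copied after replication by DNMT1, which UHRF1 brings to newly made, half-methylated DNA. DNMT3A and DNMT3B set methylation at new sites, and the TET dioxygenases oxidise methylated cytosine as a step of its removal. PRC2 methylates lysine 27 of histone H3 through EZH2 or its relative EZH1, with SUZ12 as scaffold, and this mark goes with the repression of developmental genes. UHRF1, DNMT1 and EZH2 are known to be high in dividing cells, where E2F factors drive their transcription, while EZH1 is known from cells that divide little.

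The libraries held 16461178 to 17167293 counts, and mitochondrial genes took 6.74% to 7.86% of them. HMGA2 stood at 131 and 133 TMM-normalised CPM (counts scaled to library size) in shNC, 49.5 and 58.3 CPM in shHMGA2-1, and 25.7 and 27.6 CPM in shHMGA2-2. Its log2 difference from shNC was -1.29 ± 0.0867 (SE) in shHMGA2-1 and -2.31 ± 0.0927 in shHMGA2-2 (quasi-likelihood test in edgeR, with p adjusted after Benjamini and Hochberg, adjusted p = 2.17e-11 and 2.11e-16). Among markers of the line, VIM held 35046 to 38106 counts per library, whereas SPARC held 0 to 6. Of the luminal genes, ESR1, PGR and CDH1 stayed at 0 to 12 counts, and the summed counts of 8 luminal markers ran from 2691 to 2781 in shNC, from 3184 to 3854 in shHMGA2-1 and from 5048 to 5615 in shHMGA2-2. The members of that list went different ways. KRT8, a keratin, held 1327 and 1247 counts in shNC and 3061 and 3417 in shHMGA2-2, whereas FOXA1, a luminal factor, held 110 and 94 counts in the control and 5 and 1 in shHMGA2-2, with 64 and 68 in the shHMGA2-1 line. EPCAM was highest in the shHMGA2-1 line with 274 and 302 counts, against 146 and 127 in the control and 137 and 133 in shHMGA2-2. The 7 leukocyte and endothelial markers summed to 7 to 30 counts per library, with CD3E at 0 in all of them and PECAM1 at 14 and 11 in shNC against 0 to 2 elsewhere. The part of these differences in the results was not tested.

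The sequences around the starts of these genes were read from RefSeq (GRCh38.p14), where all 10 symbols matched, each window running from 250 bases before a start to 50 after it. The window nearest to the deposited 5′ end of each gene was used. The E2F letters TTTCCCGC, TTTCGCGC, TTTGCCGC and TTTGGCGC were searched on both strands, and 1 of these was found in the window of 5 of the 10 genes, namely DNMT1, UHRF1, EZH2, EZH1 and SUZ12. Over all 35097 windows, several for some genes, the share with such a match was 3.3%. Counted in the same way, 6 of all 22 windows of the 10 genes held a match, including another UHRF1 window. Each of the 5 nearest windows with a match held a single match, so no matches overlapped. The 5 genes without a match were DNMT3A, DNMT3B and the TET genes. A match is a description of these letters and not a site. GC content ran from 47.7% in the TET2 window to 82.7% in that of TET3, with a median over all windows of 58.7%. The ratio of observed to expected CpG was 0.12 for DNMT3B and 0.46 to 1.1 for the other 9, against a median of 0.58. The windows of UHRF1, EZH2 and EZH1, which hold a match, and that of DNMT3B, which holds few CpG sites, are shown with the matched letters in capitals. The start used lies 36333 bases from the 5′ end in the deposited table for DNMT1. It lies 17467 bases away for DNMT3B, 6421 bases for UHRF1 and at most 30 bases for the other 7 genes. For DNMT1, DNMT3B and UHRF1 it lies inside the deposited gene, so these windows do not cover the deposited 5′ end. DNMT3B had only this 1 window, so its CpG ratio and its lack of a match describe an internal start. The windows lie at chr19:4909251-4909550 on the plus strand (UHRF1), chr7:148884242-148884541 on the minus strand (EZH2), chr17:42744991-42745290 on the minus strand (EZH1) and chr20:32779602-32779901 on the plus strand (DNMT3B), and each is written 5′ to 3′ along the gene.
UHRF1: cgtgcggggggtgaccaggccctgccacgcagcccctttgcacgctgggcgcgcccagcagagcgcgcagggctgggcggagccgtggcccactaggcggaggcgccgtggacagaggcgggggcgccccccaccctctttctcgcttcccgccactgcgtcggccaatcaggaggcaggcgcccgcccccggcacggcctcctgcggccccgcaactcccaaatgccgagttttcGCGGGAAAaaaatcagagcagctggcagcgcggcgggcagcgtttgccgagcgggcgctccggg
EZH2: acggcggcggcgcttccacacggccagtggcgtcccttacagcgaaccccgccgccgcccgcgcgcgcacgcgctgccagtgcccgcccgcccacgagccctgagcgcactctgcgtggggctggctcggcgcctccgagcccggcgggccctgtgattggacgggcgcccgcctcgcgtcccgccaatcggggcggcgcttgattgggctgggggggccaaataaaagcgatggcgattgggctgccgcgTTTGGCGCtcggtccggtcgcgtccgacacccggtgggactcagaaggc
EZH1: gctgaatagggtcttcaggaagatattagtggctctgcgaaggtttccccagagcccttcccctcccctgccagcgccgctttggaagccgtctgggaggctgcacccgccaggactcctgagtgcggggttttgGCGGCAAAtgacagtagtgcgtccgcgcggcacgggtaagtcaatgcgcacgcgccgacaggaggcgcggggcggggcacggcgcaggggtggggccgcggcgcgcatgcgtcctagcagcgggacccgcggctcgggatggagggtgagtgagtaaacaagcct
DNMT3B: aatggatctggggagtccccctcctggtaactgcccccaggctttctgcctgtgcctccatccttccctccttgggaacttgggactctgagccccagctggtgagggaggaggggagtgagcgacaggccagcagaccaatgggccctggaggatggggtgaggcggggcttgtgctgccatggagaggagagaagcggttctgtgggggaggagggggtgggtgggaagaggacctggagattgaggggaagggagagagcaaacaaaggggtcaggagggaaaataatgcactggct

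The levels of the 10 genes were compared with each other per length, as FPKM (counts scaled to exonic size and library total). In shNC, UHRF1 (36.5 FPKM), SUZ12 (36.2) and DNMT1 (34.9) were highest on this scale, and the ranges of UHRF1 and SUZ12 overlapped. EZH2 followed at 15.2 FPKM. TET3 (4.33 FPKM), EZH1 (4.20) and DNMT3B (4.00) lay close together, though their ranges did not overlap. TET2 (1.90 FPKM) and DNMT3A (0.965) came below them, and TET1 was lowest at 0.12 FPKM. Each of UHRF1, SUZ12, DNMT1 and EZH2 thus lay above the genes for new methylation and its removal, and above EZH1, in FPKM. The order depends on the length used. With the longest protein-coding transcript of GENCODE version 29 in place of the deposited exonic size, a choice made after seeing the data, DNMT1 came first (99.2), then EZH2 (61.9), SUZ12 (52.8) and UHRF1 (43.5), because the deposited sizes of DNMT1 and EZH2 (15379 and 10774 bases) are far above their longest coding transcripts (5408 and 2639 bases). On that scale EZH1 (6.34) and DNMT3B (6.33) lay above TET3 (4.91) in shNC, and EZH1 was above TET3 in all 3 lines. The size of the FPKM ratios, shares and sums of different genes given below depends on the length as well.

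The FPKM order differed between the lines. In shHMGA2-1, DNMT1 (37.5 FPKM) came first, then SUZ12 (35.0), whose range overlapped with those of its neighbours, and UHRF1 (32.7), which lay below DNMT1 without overlap. In that line, EZH1 (5.69 FPKM) lay above TET3 (5.21), the reverse of shNC on the FPKM scale alone, and DNMT3A (1.64) lay above TET2 (1.44). In shHMGA2-2, UHRF1 (45.5 FPKM) led without overlap, EZH1 reached 9.16 and TET3 6.55, and the ranges of TET2 (1.04) and DNMT3A (1.04) overlapped. TET1 was lowest in all 3 lines.

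**Figure D1:**
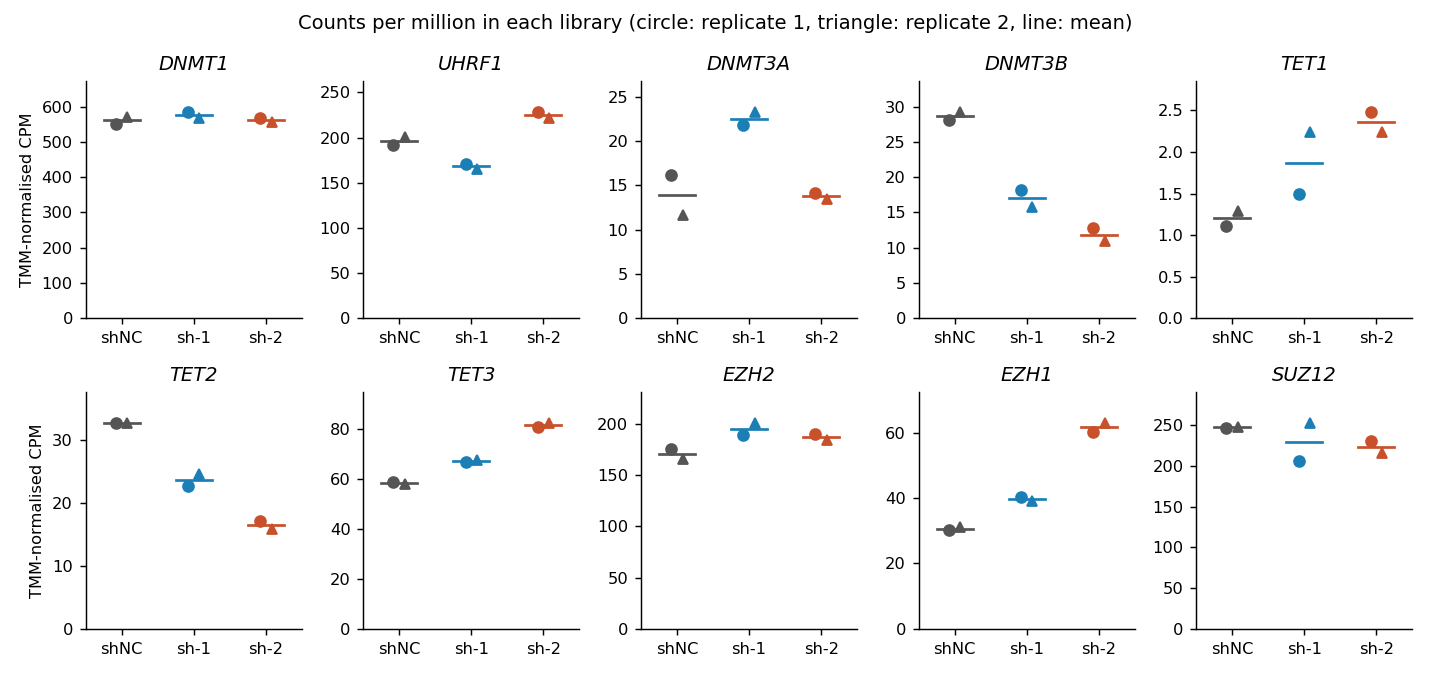
TMM-normalised CPM (vertical axes, from 0) of the 10 genes in the 2 libraries of shNC, shHMGA2-1 (sh-1) and shHMGA2-2 (sh-2), with circles for replicate 1, triangles for replicate 2 and a line at the mean. DNMT3B and TET2 step down and EZH1 and TET3 step up from shNC to shHMGA2-1 to shHMGA2-2, DNMT1 stays between 551 and 585 CPM, and the 2 SUZ12 libraries of shHMGA2-1 stand apart at 206 and 253 CPM.

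In shHMGA2-1 against shNC, 6 of the 10 genes passed an adjusted p of 0.05, against 33.4% of all 16110 genes tested. DNMT3A, EZH1 and EZH2 were higher, and DNMT3B, TET2 and UHRF1 were lower. The shares of all genes were 15.8% higher and 17.6% lower. None of the 6 changed by 2-fold or more, which 8.49% of all genes did. The median log2 difference of the 10 genes was 0.12, and that of all genes tested 0.01. All 10 genes passed the filter on low counts. In bulk RNA such as this, fewer cells that read a gene and less RNA per cell cannot be told apart.

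In shHMGA2-2 against shNC, 6 of the 10 genes passed as well, where 58.7% of all genes did, so that the share was near the background. EZH1, TET1, TET3 and UHRF1 were higher (29.5% of all genes were) and DNMT3B and TET2 lower (29.2%). DNMT3B and EZH1 changed by at least 2-fold, as did 21.3% of all genes. The median log2 difference was 0.07 for the 10 genes and 0.03 for all genes. Both comparisons share the shNC libraries, so they are not independent of each other. They also share the estimate of the spread, although the libraries of a line differed to an unequal extent. The chi-square per degree of freedom between them was 2.06 in shNC, 6.80 in shHMGA2-1 and 3.10 in shHMGA2-2. With only the libraries of shHMGA2-2 and shNC, 8 of the 10 genes and 10125 of all genes were called.

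The direct contrast of shHMGA2-2 with shHMGA2-1 called 6 of the 10 genes where 50.2% of all genes were called. Its log2 differences do not rest on the shNC means, but the shNC libraries enter the shared estimate of the spread and the scaling. With only the libraries of the lines compared, 6 of the 10 genes and 7629 of all genes were called. UHRF1, TET3 and EZH1 were higher in shHMGA2-2 (24.5% of all genes were), and DNMT3A, DNMT3B and TET2 were lower (25.7%). DNMT1, TET1, EZH2 and SUZ12 did not pass.

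With the 4 libraries of both knockdown lines taken as 1 group against shNC, so that the difference between the lines counted as error, 0 of the 10 genes passed in edgeR, against 5.26% of all genes. At an unadjusted p under 0.05 there were 5 (DNMT3B, TET1, TET2, TET3 and EZH1), against 25.5% of all genes. DESeq2 called 3, DNMT3B, TET2 and EZH1, against 14.1% of all genes, and limma on log2(FPKM + 1) called 0, against 4.43%. DNMT3B came nearest in edgeR with a log2 difference of -0.99 ± 0.213 (adjusted p = 0.0512). The values for TET2 were -0.70 ± 0.199 (adjusted p = 0.0983) and for EZH1 0.72 ± 0.240 (adjusted p = 0.134). The mean of both contrasts in the model with 3 groups, which takes only the spread within a line as error, called 7, against 49.8% of all genes.

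**Figure D2:**
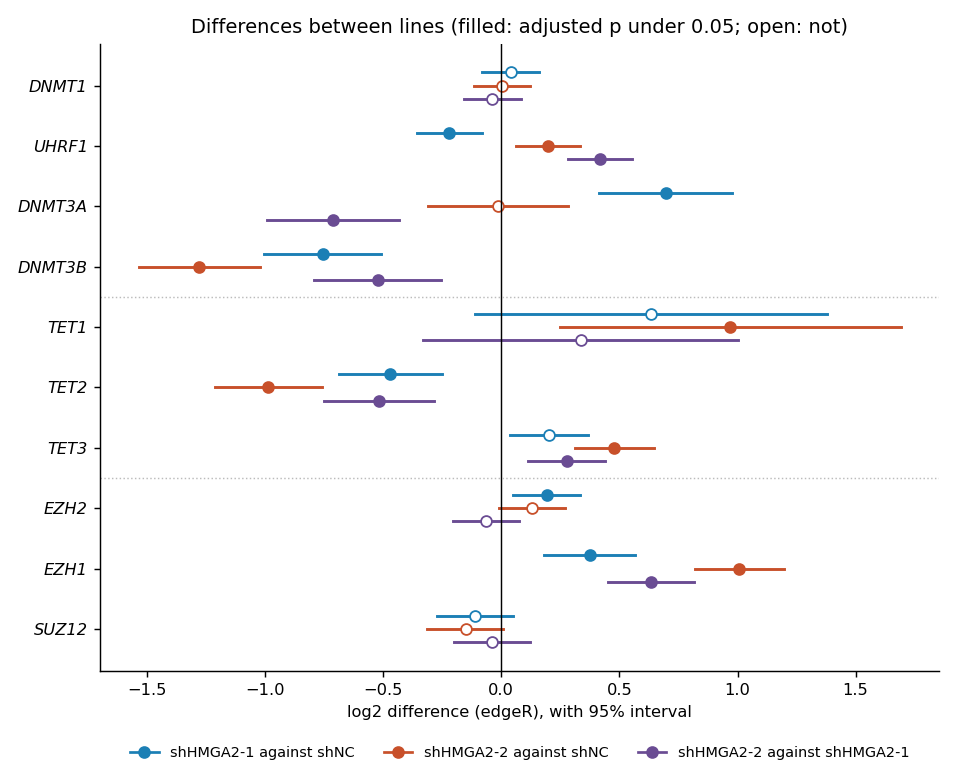
Log2 difference between lines (horizontal axis) for the 10 genes in edgeR, with 95% intervals as lines, filled circles for an adjusted p under 0.05 and open circles otherwise. DNMT3B and TET2 lie left of 0 and EZH1 lies right of 0 in all 3 contrasts, UHRF1 lies on opposite sides of 0 in the 2 knockdown lines, and DNMT1 sits near 0 in each.

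DNMT1, the maintenance methyltransferase, passed in no contrast. It read 551 and 570.1 CPM in shNC, 585 and 568 CPM in shHMGA2-1, and 567 and 556 CPM in shHMGA2-2. On this scale each knockdown line overlapped with shNC, while the shHMGA2-1 libraries lay just above those of shHMGA2-2. The overlap depends on the scaling. In deposited FPKM, every knockdown library (36.62 to 38.41) lay above both shNC libraries (34.32 and 35.47). The log2 difference from shNC was 0.04 (95% interval -0.08 to 0.16) in shHMGA2-1 and 0.003 (-0.117 to 0.123) in shHMGA2-2, neither of which passed. The smallest adjusted p over the 3 contrasts was 0.626 (edgeR). The DNMT1 gene, on the minus strand of chromosome 19 (10133342 to 10231286 in GRCh38), shares 83 exonic bases with S1PR2, which had a mean of 57.3 counts per library.

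UHRF1, the ubiquitin ligase that recruits DNMT1, moved in opposite directions in the knockdown lines. It read 192 and 200.3 CPM in shNC, 171 and 165 CPM in shHMGA2-1, and 228 and 222 CPM in shHMGA2-2, with no overlap between lines. The log2 difference was -0.22 ± 0.0663 in shHMGA2-1 (edgeR, adjusted p = 0.0124) and 0.20 ± 0.0658 in shHMGA2-2 (adjusted p = 0.0118). Between the knockdown lines it was 0.42 ± 0.066 (edgeR, adjusted p = 9.76e-06). In the respective comparison with shNC, 43.9% and 24.1% of all genes tested changed by less than UHRF1. The small steps from shNC each turn on single libraries. The shHMGA2-1 call was lost without shNC replicate 1 or 2 (adjusted p = 0.0629 and 0.184), and the shHMGA2-2 call was lost without shNC replicate 1 or 2 or shHMGA2-2 replicate 1 (0.181, 0.0538 and 0.0928), in edgeR. With limma on log2(FPKM + 1) the shHMGA2-1 difference did not pass either (0.0676). The direct contrast kept its call in every alternative run. UHRF1 lies on the plus strand of chromosome 19 (4903080 to 4962154 in GRCh38).

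DNMT3B, the methyltransferase for new sites that is usual in embryonic cells, fell in both lines. It read 28.1 and 29.2 CPM in shNC, 18.2 and 15.7 CPM in shHMGA2-1, and 12.8 and 10.9 CPM in shHMGA2-2, and no library of one line overlapped with another line. The log2 difference was -0.76 ± 0.119 in shHMGA2-1 (edgeR, adjusted p = 2.14e-05) and -1.28 ± 0.125 in shHMGA2-2 (adjusted p = 3.81e-09), or 1.69-fold and 2.42-fold lower levels. Its log2 difference between shHMGA2-2 and shHMGA2-1 was -0.52 ± 0.13 (edgeR, adjusted p = 0.00167), a call that was lost without shHMGA2-2 replicate 2 (0.0514). Of all genes tested, 83.2% and 82.9% changed by less in the respective comparison with shNC. DNMT3B lies on the plus strand of chromosome 20 (32762385 to 32809359 in GRCh38).

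DNMT3A, the main methyltransferase for new sites in adult tissue, rose in shHMGA2-1. It read 21.8 and 23.3 CPM there, 14.1 and 13.4 CPM in shHMGA2-2, and 16.1 and 11.7 CPM in shNC, whose 2 libraries stood further apart than those of the other lines. The log2 difference from shNC was 0.70 ± 0.136 in shHMGA2-1 (edgeR, adjusted p = 0.000287) and -0.01 (95% interval -0.31 to 0.28) in shHMGA2-2. The direct contrast was -0.71 ± 0.135 (adjusted p = 0.000106), so here the lines differed by test. Without shNC replicate 1, the shHMGA2-2 value was 0.23 and still did not pass. DNMT3A lies on the minus strand of chromosome 2 (25227855 to 25342590 in GRCh38).

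The share of DNMT3B in the summed FPKM of DNMT3A and DNMT3B was 77.8% and 83.4% in shNC, against 62.6% and 57.5% in shHMGA2-1 and 64.4% and 61.9% in shHMGA2-2. The FPKM ratio of DNMT3B to DNMT3A was therefore 3.50 and 5.01 in shNC and 1.35 to 1.81 in the 4 knockdown libraries. The sum of both genes went from 5.04 and 4.88 FPKM in shNC to 4.28 and 3.94 in shHMGA2-1 and 2.96 and 2.69 in shHMGA2-2. Of the summed FPKM of all 3 methyltransferase genes, DNMT1 made up 87.2% and 87.9% in shNC and 92.8% and 93.4% in shHMGA2-2. A ratio within a library does not depend on its total, and it shows unequal change without saying which gene moved.

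**Figure D3:**
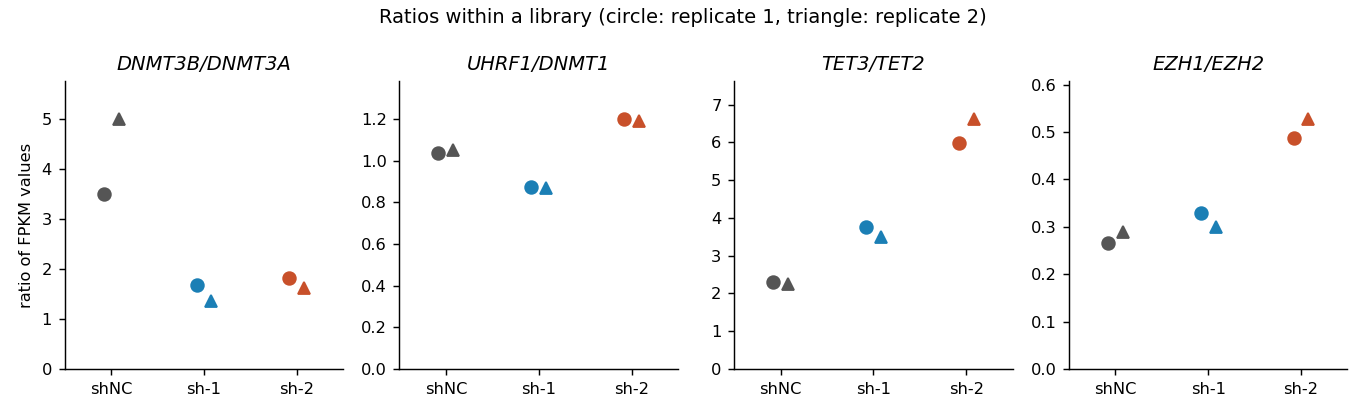
Ratio of 2 genes' FPKM values within each library (vertical axes, from 0), for shNC, shHMGA2-1 (sh-1) and shHMGA2-2 (sh-2), with circles for replicate 1 and triangles for replicate 2. The DNMT3B/DNMT3A ratio is 3.50 and 5.01 in shNC and at most 1.81 in the knockdown lines, TET3/TET2 steps up from 2.26 to 6.63 over the lines, and EZH1/EZH2 is highest in shHMGA2-2.

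Among the dioxygenases, TET2 fell in both knockdown lines while TET3 rose in shHMGA2-2. TET2, which lacks a DNA-binding CXXC domain of its own, read 32.6 and 32.7 CPM in shNC, 22.6 and 24.6 CPM in shHMGA2-1, and 17.1 and 15.8 CPM in shHMGA2-2, without overlap. Its log2 difference was -0.47 ± 0.105 in shHMGA2-1 (edgeR, adjusted p = 0.00116) and -0.99 ± 0.109 in shHMGA2-2 (adjusted p = 3.4e-08). The shHMGA2-1 call was lost with limma on log2(FPKM + 1) (adjusted p = 0.0556). The lines differed from each other by -0.52 ± 0.112 (edgeR, adjusted p = 0.00043). TET2 lies on the plus strand of chromosome 4 (105145875 to 105279816 in GRCh38).

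TET3, the dioxygenase known from the oocyte and from neurons, was the highest of the 3 per length. It read 58.9 and 58.0 CPM in shNC, 66.9 and 67.6 CPM in shHMGA2-1, and 80.5 and 82.5 CPM in shHMGA2-2, again without overlap. The log2 difference was 0.20 ± 0.0807 in shHMGA2-1, which did not pass (edgeR, adjusted p = 0.056), and 0.48 ± 0.08 in shHMGA2-2 (adjusted p = 1.56e-05). The knockdown lines differed by 0.28 ± 0.079 (edgeR, adjusted p = 0.0052), a call that was lost without shHMGA2-2 replicate 2 (0.0589). Without shHMGA2-1 replicate 1, the shHMGA2-1 difference passed at 0.21 (0.0421). TET3 lies on the plus strand of chromosome 2 (73984910 to 74108176 in GRCh38).

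TET1, known from embryonic stem cells, was at the edge of what this depth resolves. The shNC libraries held 18 and 21 counts, those of shHMGA2-1 held 26 and 38, and those of shHMGA2-2 held 42 and 39. The log2 difference was 0.63 (95% interval -0.11 to 1.38) in shHMGA2-1, which did not pass, and 0.97 ± 0.349 in shHMGA2-2 (edgeR, adjusted p = 0.0199). The second call was lost in DESeq2 (adjusted p = 0.0831) and in edgeR without any 1 of the 4 libraries it compares (0.0508 to 0.108). TET1 lies on the plus strand of chromosome 10 (68560337 to 68694487 in GRCh38).

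The balance within the family moved with these genes. The TET3 share of the summed TET FPKM was 68.5% and 67.9% in shNC, against 77.2% and 75.2% in shHMGA2-1 and 82.7% and 84.2% in shHMGA2-2. The sum itself was 6.36 and 6.32 FPKM in shNC, against 6.77 and 6.89 in shHMGA2-1 and 7.73 and 7.95 in shHMGA2-2. The ratio of TET3 to TET2 was 2.30 and 2.26 in shNC, against 3.77 and 3.50 in shHMGA2-1 and 5.98 and 6.63 in shHMGA2-2, so that the lines did not overlap.

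Of the PRC2 core, EZH1 had the largest log2 differences from shNC. It read 30.2 and 31.0 CPM in shNC, 40.3 and 39.1 CPM in shHMGA2-1, and 60.1 and 63.0 CPM in shHMGA2-2, with the lines well apart. The log2 difference was 0.37 ± 0.0938 in shHMGA2-1 (edgeR, adjusted p = 0.00313) and 1.01 ± 0.0915 in shHMGA2-2 (adjusted p = 1.1e-09), or 1.30-fold and 2.01-fold. Between the knockdown lines it was 0.63 ± 0.089 (edgeR, adjusted p = 1.98e-06). The shHMGA2-1 call was lost without shNC replicate 1 (0.0611), and the shHMGA2-2 call held in every alternative run. EZH1 lies on the minus strand of chromosome 17 (42700275 to 42745049 in GRCh38).

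EZH2, the more abundant catalytic subunit, read 175 and 166 CPM in shNC, 189 and 201 CPM in shHMGA2-1, and 189.8 and 184 CPM in shHMGA2-2. All 4 knockdown libraries were above both shNC libraries, by little. The log2 difference was 0.19 ± 0.0679 in shHMGA2-1 (edgeR, adjusted p = 0.0317) and 0.13 (95% interval -0.01 to 0.27) in shHMGA2-2, which did not pass (adjusted p = 0.106). The shHMGA2-1 call is not firm. It was lost with DESeq2 (0.0685), with DESeq2 size factors in edgeR (0.0532), without a filter on low counts (0.0802), with a replicate block (0.0718), with only the libraries of the lines compared (0.0578) and without shNC replicate 1 or 2, shHMGA2-1 replicate 2 or shHMGA2-2 replicate 1 or 2 (0.0575 to 0.305). Conversely, the shHMGA2-2 difference passed with limma on log2(FPKM + 1) (0.0107), without shHMGA2-1 replicate 1 or 2 (0.0303 and 0.0306) and with only the libraries of the lines compared (0.0307). EZH2 lies on the minus strand of chromosome 7 (148807257 to 148884321 in GRCh38).

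The FPKM ratio of EZH1 to EZH2 was 0.265 and 0.288 in shNC, against 0.329 and 0.300 in shHMGA2-1 and 0.488 and 0.529 in shHMGA2-2. EZH1 made up 21.0% and 22.4% of the summed FPKM of both in shNC and 32.8% and 34.6% in shHMGA2-2.

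SUZ12, the scaffold of the complex, did not pass in any contrast. It read 247 and 248 CPM in shNC, 206 and 253 CPM in shHMGA2-1, and 230.2 and 216 CPM in shHMGA2-2. The shHMGA2-1 libraries lay on both sides of the others, and the log2 difference from shNC was -0.11 (95% interval -0.27 to 0.05) in shHMGA2-1 and -0.15 (-0.31 to 0.009) in shHMGA2-2. In edgeR without shHMGA2-1 replicate 1, the shHMGA2-1 difference was 0.03, and without shHMGA2-1 replicate 2 it was -0.27 (adjusted p = 0.000896). Without shHMGA2-1 replicate 1 or 2, the shHMGA2-2 difference passed at -0.15 in both cases (adjusted p = 0.00911 and 0.00928). It also passed with only the libraries of the lines compared (-0.15, edgeR, adjusted p = 0.00926) and without a filter on low counts (-0.18, 0.033). SUZ12 lies on the plus strand of chromosome 17 (31937007 to 32001038 in GRCh38).

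The genes that work with PRC2 were read from a list of 12, of which 11 were tested and EZHIP had 0 counts in all libraries, which allows up to 3 counts. In shHMGA2-1, 5 rose and 0 fell, and in shHMGA2-2, 5 rose and 4 fell. For this list and those that follow, the shares of all genes were 15.8% higher and 17.6% lower in shHMGA2-1, and 29.5% higher and 29.2% lower in shHMGA2-2. The median log2 difference was 0.06 and 0.07, against 0.01 and 0.03 for all genes tested. Those that rose were EPOP, PHF19, MTF2, RBBP4 and JARID2 in each line. Since the lines share the shNC libraries, each line's values are given on their own.

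MTF2 and PHF19 are Polycomb-like proteins that help PRC2 bind unmethylated CpG-rich DNA. PHF19 read 114 and 113 CPM in shNC, 179.8 and 152 CPM in shHMGA2-1, and 232 and 239 CPM in shHMGA2-2. It rose by 0.55 ± 0.0764 in log2 in shHMGA2-1 (edgeR, adjusted p = 3.89e-06) and by 1.05 ± 0.0761 in shHMGA2-2 (adjusted p = 1.64e-11). For MTF2 the log2 difference was 0.52 in shHMGA2-1 and 0.55 in shHMGA2-2 (edgeR, adjusted p = 3.19e-05 and 4.26e-06). The third gene of that group, PHF1, did not pass in either line and read 13.63 to 17.03 FPKM over the 6 libraries.

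RBBP4, a histone-binding subunit, read 117 and 118 CPM in shNC, 146 and 143 CPM in shHMGA2-1, and 246 and 238 CPM in shHMGA2-2. It rose by 0.30 ± 0.0681 in shHMGA2-1 (edgeR, adjusted p = 0.00135) and 1.04 ± 0.0676 in shHMGA2-2 (adjusted p = 2.23e-12). Its relative RBBP7 fell in shHMGA2-2, with a log2 difference of -0.26 (edgeR, adjusted p = 0.000699). EED, the subunit that reads the methylated histone, fell there too, with -0.26 (edgeR, adjusted p = 0.00977). The EED call was lost with limma on log2(FPKM + 1) (adjusted p = 0.115) and in edgeR without shNC replicate 1, shHMGA2-2 replicate 1 or shHMGA2-2 replicate 2 (0.109, 0.0524 and 0.0604).

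JARID2 and AEBP2, which belong to the other variant of PRC2, differed in direction in shHMGA2-2. JARID2 rose by 0.26 in shHMGA2-1 and 0.61 in shHMGA2-2 (edgeR, adjusted p = 0.0239 and 1.41e-06), where the first call was lost in DESeq2 (0.0633) and in edgeR without shNC replicate 1 or 2 or shHMGA2-2 replicate 2 (0.304, 0.0574 and 0.0518). AEBP2 fell, with a log2 difference of -0.52 ± 0.109 in shHMGA2-2 (edgeR, adjusted p = 0.000236). EPOP, which links PRC2 to elongin, rose by 0.79 in shHMGA2-1 (edgeR, adjusted p = 6.62e-06) and by 0.34 in shHMGA2-2 (0.0173), the latter call lost in DESeq2 (0.0565) and in edgeR without shNC replicate 2 or shHMGA2-2 replicate 1 or 2 (0.211, 0.0643 and 0.0951). LCOR, whose locus also encodes a PRC2-binding isoform, fell, with a log2 difference of -0.95 ± 0.0936 in shHMGA2-2 (edgeR, adjusted p = 4.31e-09).

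**Figure D4:**
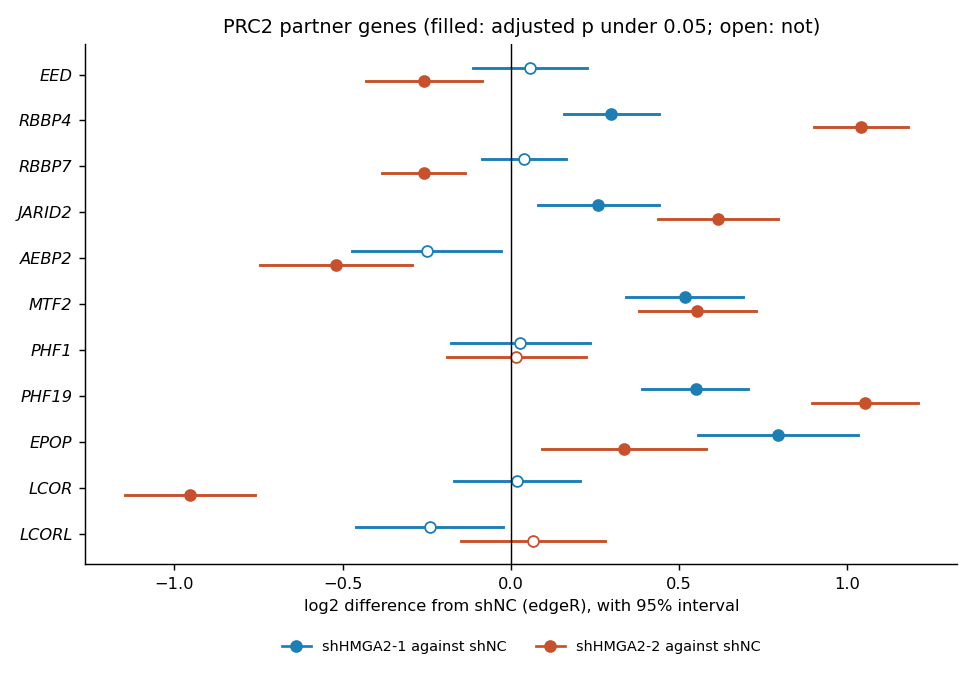
Log2 difference from shNC (horizontal axis) of the 11 tested PRC2 partner genes in shHMGA2-1 and shHMGA2-2, in edgeR, with 95% intervals as lines, filled circles for an adjusted p under 0.05 and open circles otherwise. PHF19 and RBBP4 reach 1.05 and 1.04 in shHMGA2-2, LCOR lies at -0.95 there, and no gene of shHMGA2-1 falls below 0 with a filled circle.

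PRC1 is a group of complexes that ubiquitinate histone H2A, and only some of them read the PRC2 mark. Of 23 PRC1 subunits, 3 rose and 4 fell in shHMGA2-1, and 6 rose and 8 fell in shHMGA2-2. In shHMGA2-2, 29.5% of all genes rose and 29.2% fell, so that the shares there were near the background. PHC2, a polymerising subunit, fell, with a log2 difference of -0.86 in shHMGA2-1 (edgeR, adjusted p = 2.11e-08). PCGF5 and RNF2, a RING-finger partner and a catalytic subunit, fell, with log2 differences of -0.92 and -0.59 in shHMGA2-2 (adjusted p = 1.68e-09 and 4.06e-05). L3MBTL2 rose by 0.76 there (adjusted p = 6.13e-07). The median log2 difference of the list was 0.06 in shHMGA2-1 and -0.09 in shHMGA2-2.

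Of 10 genes that oppose Polycomb repression, 9 were tested, of which 2 rose and 0 fell in shHMGA2-1, and 4 rose and 3 fell in shHMGA2-2. KDM6A, a demethylase of histone H3 lysine 27, rose by 1.12 ± 0.0902 in shHMGA2-2 (edgeR, adjusted p = 1.25e-10), from 33.3 and 36.2 CPM in shNC to 76.2 and 74.8 CPM. In shHMGA2-1, at 36.8 and 34.6 CPM, it overlapped with shNC.

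Among 10 partners of DNA methylation, 8 were tested. In shHMGA2-1, 0 rose and 1 fell, and in shHMGA2-2, 1 rose and 5 fell. HELLS, a chromatin remodeller needed for methylation of repeats, fell, with a log2 difference of -0.39 in shHMGA2-2 (edgeR, adjusted p = 6.7e-05). CDCA7L, a relative of the HELLS partner CDCA7, fell, with a log2 difference of -0.40 in shHMGA2-1 and -0.47 in shHMGA2-2 (adjusted p = 8.51e-05 and 3.64e-06). The list's median log2 difference was 0.04 in shHMGA2-1 and -0.22 in shHMGA2-2.

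The list of methyl-CpG readers held 10 genes, for proteins that bind methylated DNA or are related to such proteins. In shHMGA2-1, 0 of them rose and 3 fell, and in shHMGA2-2, 2 rose and 6 fell. The medians were -0.09 and -0.33. MBD2, which recruits the NuRD complex, fell, with a log2 difference of -0.44 in shHMGA2-1 and -0.73 in shHMGA2-2 (edgeR, adjusted p = 7.13e-05 and 1.49e-08). ZBTB38, a zinc finger reader, rose by 0.84 in shHMGA2-2 (adjusted p = 9.15e-11).

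The enzymes around TET activity, 13 genes of base excision, 2-oxoglutarate supply and TET partners, held 3 that rose and 2 that fell in shHMGA2-1, and 4 that rose and 3 that fell in shHMGA2-2. IDH2, the mitochondrial enzyme that makes 2-oxoglutarate, rose from 5.11 and 4.19 CPM in shNC to 9.91 and 10.3 CPM in shHMGA2-1 and 16.6 and 18.9 CPM in shHMGA2-2. Its log2 difference was 1.12 ± 0.169 and 1.93 ± 0.159 (edgeR, adjusted p = 1.21e-05 and 1.79e-10). IDH1, the cytosolic form, fell from 114 and 129 CPM in shNC to 87.8 and 95.9 CPM in shHMGA2-1 and 53.7 and 46.5 CPM in shHMGA2-2. The IDH1 log2 difference was -0.40 ± 0.0855 and -1.28 ± 0.0891 (edgeR, adjusted p = 0.000714 and 8.47e-12), the first of which was lost without shNC replicate 2 (0.0682).

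Of 7 methyl donor genes, 1 rose and 1 fell in shHMGA2-1, and 2 rose and 4 fell in shHMGA2-2. NNMT, which uses up the methyl donor on nicotinamide, read 4.12 and 4.92 CPM in shNC, 4.21 and 3.36 CPM in shHMGA2-1, and 38.4 and 37.0 CPM in shHMGA2-2. It rose by 3.06 ± 0.144 in the last line (edgeR, adjusted p = 4.64e-15).

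Since UHRF1, DNMT1 and EZH2 are tied to cell division, 24 genes of S phase and mitosis were read beside them. In shHMGA2-1, 6 rose and 5 fell, with a median log2 difference of 0.008, and in shHMGA2-2, 11 rose and 6 fell, with a median of 0.14. E2F1, an activating E2F factor, rose by 0.92 ± 0.0944 in shHMGA2-2 (edgeR, adjusted p = 8.67e-09), while E2F7, a repressing one, fell, with a log2 difference of -0.75 in shHMGA2-1 and -1.24 in shHMGA2-2 (adjusted p = 3.34e-08 and 1.41e-12). In shHMGA2-1, E2F2 fell, with a log2 difference of -0.73, while E2F8 rose by 0.37 (edgeR, adjusted p = 0.00056 and 0.00226). MCM7, a helicase subunit, rose by 0.65 in shHMGA2-2 and CCNE2 fell there, with a log2 difference of -0.84 (adjusted p = 2.14e-09 and 6.09e-08). The part of cell division in the values of the 10 genes was not tested.

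For each of the 4 genes called in both comparisons with shNC, the gene of these lists with the most similar pattern over the 6 libraries was sought among 122 genes, by Pearson's r of log2 CPM, as a description. The points are only 6 libraries in 3 lines, so r mostly reflects the 3 line means. UHRF1 was most like TYMS (r = 0.993), which makes thymidylate in S phase. DNMT3B was most like MBD1 (0.981), TET2 most like QSER1 (0.995), a protein that guards CpG-rich regions with TET1, and EZH1 most like TET3 (0.995).

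Genes known to be kept silent by these systems in many cell types stayed mostly unread. Of all 61806 genes, 16110 passed the filter on low counts, so being unread is not particular to these lists. Of 25 germline genes known for silencing by promoter methylation, 18 had at most 3 counts in every library and 2 were tested. TDRD9, a germline RNA helicase, was read by 1 count in each shNC library, by 13 and 14 in shHMGA2-1, and by 10 and 7 in shHMGA2-2 (edgeR, adjusted p = 0.00185 and 0.00875), which is too few for a fold. It passed the filter on low counts only through knockdown libraries, and the shHMGA2-2 call was lost without shHMGA2-2 replicate 1 (edgeR, adjusted p = 0.0591) and in limma on log2(FPKM + 1) (0.0545). Since TDRD9 was also named after its values were seen, its adjusted p-values are given as a description only. XAGE1A, with 12 to 29 counts per library, did not pass.

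Of 30 developmental regulators known as Polycomb targets, 21 had at most 3 counts in every library and 6 were tested. In shHMGA2-1, 2 rose and 1 fell, and in shHMGA2-2, 5 rose and 1 fell. HAND1, EN2, WT1 and CDKN1C passed the filter on low counts only through knockdown libraries, so this count is no measure of the list. For the same reason, the adjusted p-values of HAND1 and EN2 below are given as a description only. HAND1, a factor of heart and placenta, had 2 counts in each shNC library, with 40 and 45 in those of shHMGA2-1 and 47 and 59 in those of shHMGA2-2 (edgeR, adjusted p = 6.14e-07 and 3.19e-08). EN2, a factor of the midbrain, had 3 and 6 counts in the control, with 49 and 44 in shHMGA2-1 libraries and 64 and 76 in shHMGA2-2 libraries (adjusted p = 1.93e-06 and 1.53e-08). Both were close to the floor of 3 counts in shNC and well above it in all 4 knockdown libraries.

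GATA6, a factor of endoderm, moved in opposite directions, with 112 and 122 counts in the control libraries, 67 and 41 in the shHMGA2-1 line and 191 and 197 in shHMGA2-2 (edgeR, log2 differences -1.19 and 0.65, adjusted p = 7.73e-05 and 0.00256, and 1.84 between the knockdown lines, adjusted p = 2.59e-08). SIM2 held 112 and 129 counts in shNC and 51 and 61 in shHMGA2-2, a log2 difference of -1.19 ± 0.197 (edgeR, adjusted p = 1.53e-05). DNA methylation and histone marks were not measured in these libraries, which hold RNA only.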

How the data were processed

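RNA-seq of 3 MDA-MB-231 lines, in 2 libraries each, was read from the table the authors deposited, which gives counts and FPKM by gene for every library. Per the labels, the submitters' processing notes name HISAT2 2.2.1, HTSeq 0.6.1 and GRCh38.p13. The strand setting and the annotation are not given in the sources used here, so reads of overlapping genes could have been shared in ways not known. The deposited counts are whole numbers without normalization. The deposited FPKM values are counts that the authors scaled to exonic size and library total. Recomputing them gave 100.0% of values to within 0.0051.

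Groups and replicate numbers came from the titles. Library names differ from them, with WT for shNC and SH2 for shHMGA2-1. Counts were tested with edgeR 4.0.16 in R 4.3.3 (TMM, filterByExpr by group, quasi-likelihood test, Benjamini-Hochberg over 16110 genes) in a model with 3 groups, and with both knockdown lines as 1 group. Errors are SE and intervals are 95%. A call means an adjusted p under 0.05. Alternatives were DESeq2 1.42.0, DESeq2 size factors, no filter, limma 3.58.1 on log2(FPKM + 1) and log2(FPKM + 0.1), a replicate block, only the libraries compared, and each library left out. Counts were simulated for 16110 genes, with the same spread for every gene and changes planted in few genes, all of higher mean count. The edgeR test of shHMGA2-2 against shNC recovered 100 of 100 genes changed by 1 on the log2 scale. It recovered 79 of 100 changed by 0.5, with 10 false calls. For shHMGA2-1 against shNC the values were 96, 74 and 7. The simulation does not cover changes in genes of low count such as TET1. A count of 0 allows up to 3 counts, which covers counting error only. Promoter windows came from RefSeq (GRCh38.p14).

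The 10 genes and the lists were chosen with earlier results of these data known. Named beside the 10 genes were HMGA2, all called PRC2 partners and, from each other list, genes among the top 2 in each direction in a line, with a mean count of at least 20. TDRD9 was named outside this rule after its values were seen. Columns of functional terms were not used.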

Additional observations from a re-analysis of the deposited data

Results flagged for a closer look

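For 6 of the 10 genes the effect against shNC differed between the knockdown lines, by the direct contrast of shHMGA2-2 with shHMGA2-1 in edgeR (quasi-likelihood test with Benjamini-Hochberg adjustment), where 50.2% of all genes did. UHRF1 differed by 0.419 on the log2 scale (adjusted p = 9.76e-06) and is the member that was called in opposite directions against shNC. DNMT3A differed by -0.71 (adjusted p = 0.000106), higher in shHMGA2-1 than in both other lines. DNMT3B differed by -0.522 (adjusted p = 0.00167) and TET2 by -0.517 (0.00043), each lower in both knockdown lines than in shNC and lowest in shHMGA2-2. TET3 differed by 0.277 (adjusted p = 0.0052) and EZH1 by 0.634 (1.98e-06), each highest in shHMGA2-2. HMGA2 itself read 49.5 and 58.3 CPM in shHMGA2-1 and 25.7 and 27.6 CPM in shHMGA2-2. Whether the depth of the knockdown, the hairpin or the line sets these differences cannot be told apart with 1 line per hairpin.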

How the results depend on the processing

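Of 439 values of the 10 genes recomputed under the alternatives, 376 kept their direction and their side of the threshold. The count of the 10 genes called ranged from 3 (without shNC replicate 1) to 7 in shHMGA2-1, from 4 to 8 in shHMGA2-2 and from 4 to 7 in the direct contrast when 1 library was left out. The count of all genes called then ranged from 3283 to 5795 in shHMGA2-1, from 7703 to 10140 in shHMGA2-2 and from 6226 to 7970 in the direct contrast. A lone library left in a line is assumed to vary like the other lines. With both knockdown lines as 1 group, DESeq2 size factors gave 1 of the 10 genes, DESeq2 3 and the mean of the shRNA contrasts 7, and leaving out 1 library gave 0 to 1 (DNMT3B without shHMGA2-1 replicate 1). The count of all genes called there was 848, with 2268 in DESeq2, 8015 with the mean of the shRNA contrasts, 152 with the replicate block and 4 to 822 when 1 library was left out (4 without either shNC library).

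Values that changed sign were all of genes that did not pass. For DNMT1 in shHMGA2-2 against shNC they were -0.002 in DESeq2 and with DESeq2 size factors, -0.022 without a filter, and from -0.029 (without shNC replicate 1) to 0.028 over left-out libraries, with -0.011 without shHMGA2-2 replicate 1. For DNMT3A in shHMGA2-2 they were 0.055 and 0.107 with limma on log2(FPKM + 1) and log2(FPKM + 0.1), and from -0.227 to 0.227 (without shNC replicate 1) over left-out libraries, with 0.015 without shHMGA2-2 replicate 2. SUZ12 in shHMGA2-1 was 0.032 when shHMGA2-1 replicate 1 was left out, and its range over left-out libraries began at -0.268. In the direct contrast DNMT1 was 0.018 with both limma pseudocounts, and SUZ12 was 0.02 and 0.021 with limma, and from -0.183 to 0.117 over left-out libraries, the latter lacking shHMGA2-1 replicate 2, with 0.002 when shHMGA2-2 replicate 2 was left out. The cause was not tested.

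The replicate numbers of the titles were not shown to pair the libraries. The deviations of same-numbered libraries correlated with r = -0.0218 (shNC and shHMGA2-1), 0.0021 (shNC and shHMGA2-2) and -0.1004 (shHMGA2-1 and shHMGA2-2). With the replicate block, 5, 6 and 6 of the 10 genes were called in shHMGA2-1, shHMGA2-2 and the direct contrast, EZH2 in shHMGA2-1 being the call lost, and 0 with both lines as 1 group. All genes called numbered 4840, 9065 and 7609. Crossing the numbers of shHMGA2-1 and shHMGA2-2, a choice made after seeing the data, gave 8393 genes and 6 of the 10. Depth limits TET1 most, at 18 to 42 counts per library.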
